A study of Mus musculus with 45 samples.

Results

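The genes described here encode the folding machinery of the endoplasmic reticulum (ER) and the signalling pathway that adjusts it, the unfolded protein response (UPR). They are 32 genes of the 57010 in the deposited count table, taken by symbol from a list of known chaperones, isomerases, degradation factors and UPR sensors, and each symbol was found once. Of the 32, 31 passed the filter on low counts, and Derl3, a member of the derlin family of ER degradation factors, did not, with 0 to 0.442 CPM (counts scaled to a common library size) over all libraries. The measurements are total RNA sequencing counts from wild-type mouse embryonic fibroblasts (MEFs), which are primary connective-tissue cells grown from embryos.

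Cells were in one of 3 states: uninduced, made senescent with 200 µM hydrogen peroxide (H2O2) for 24 h, or made senescent with 2 µM etoposide, a topoisomerase II inhibitor, for 24 h. Induced cells were then cultured for a further 5 days. Cells of each state were given ethanol as vehicle, the conjugated fatty acid alpha-eleostearic acid (ESA), its methyl ester (ESA-Me), or either compound after a pretreatment of 1 h with 2 µM ferrostatin-1 (Fer-1), an inhibitor of the iron-dependent lipid peroxidation death called ferroptosis. Exposure lasted 12 h. Doses are uncertain: 2 µg/mL of either compound in the sample labels, but 10 µg/mL (ESA) and 20 µg/mL (ESA-Me) in the protocol, so the compounds are set side by side and not tested against each other. There was no group with Fer-1 alone. The 15 groups held 3 replicates each, 45 libraries in all, and nothing in the labels says whether replicates came from separate embryos, so p-values measure the spread between these libraries.

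Proteins of the secretory pathway enter the ER through the translocon and are folded there by chaperones such as BiP (Hspa5), GRP94 (Hsp90b1), calreticulin (Calr) and calnexin (Canx), and by protein disulfide isomerases. When unfolded protein accumulates, the sensors IRE1 (Ern1), ATF6 (Atf6) and PERK (Eif2ak3) signal to the nucleus. IRE1 splices the messenger of Xbp1, ATF6 is itself a membrane-bound transcription factor, and PERK slows translation and favours ATF4, so that chaperone and ER-associated degradation (ERAD) genes are typically induced together. Splicing of Xbp1 and cleavage of Atf6 cannot be read from gene counts.

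The ER stress response element (ERSE), bound by ATF6 together with NF-Y, lies in the promoters of many of these genes. It was searched as CCAAT and CCACG with 9 bases between them, on both strands of RefSeq promoter windows of GRCm38.p6 that run from 250 bases before to 50 bases after the start site, and 28 of the 32 genes had a window (Atf6, Derl1, Hyou1 and Manf had none). ERSE was found in a window of 10 of those 28 genes (Calr, Canx, Creld2, Derl3, Dnajc3, Ero1b, Hsp90b1, Hspa5, Pdia6 and Syvn1). Over all 27025 genes with a window the share was 0.137%. The shorter ERSE-II, searched as ATTGG and CCACG with 1 base between them, was found in Dnajb11 and Herpud1, against 0.0444% of all genes. The XBP1-type element TGACGTGG was in 0 of the 28 genes and in 0.714% of all genes. The pentamer CCAAT, which ERSE and the reverse of ERSE-II contain, was in 25 of the 28 and in 41.1% of all genes. These matches describe letters in a window and do not show binding. The sites of the chaperone and isomerase genes that the results turn on, and the ERSE-II of Herpud1, are shown with the motif bases in capitals and the spacer bases in lower case, each 5′ to 3′ on the strand that carries the motif.
Hspa5, chr2:34772025-34772043: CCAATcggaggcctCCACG
Hsp90b1, nearer site, chr10:86705533-86705551: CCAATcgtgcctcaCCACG
Hsp90b1, farther site, chr10:86705638-86705656: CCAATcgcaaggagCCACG
Calr, chr8:84847075-84847093: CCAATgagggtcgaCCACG
Pdia6, chr12:17266491-17266509: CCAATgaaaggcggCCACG
Canx, chr11:50325800-50325818: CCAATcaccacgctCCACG
Herpud1, ERSE-II, chr8:94386377-94386387: ATTGGGCCACG

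For 3 of these genes, picked by hand, the 250 bases before the start site are shown whole. They differ in motif and in response but do not stand for the list. Pdia4 and Fkbp2, whose windows held no ERSE, were called lower after H2O2 as Pdia6 was. Counted from the RefSeq start site, Hspa5 carries an ERSE from 65 to 47 bases before its start and Pdia6 one from 98 to 80 bases before. Ern1, the gene called in the most treatment comparisons, carries none. In GENCODE M21 the Hspa5 gene begins farther upstream, at chr2:34771970, so there its ERSE lies inside the gene. Capitals mark the full ERSE including its spacer, and each is written 5′ to 3′ on the strand of the gene (RefSeq, GRCm38.p6).
Hspa5, plus strand, chr2:34771840-34772089: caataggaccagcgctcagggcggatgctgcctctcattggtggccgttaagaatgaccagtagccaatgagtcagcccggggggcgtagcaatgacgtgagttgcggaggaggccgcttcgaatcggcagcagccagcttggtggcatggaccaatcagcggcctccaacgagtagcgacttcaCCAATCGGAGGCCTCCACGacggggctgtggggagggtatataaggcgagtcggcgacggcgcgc
Pdia6, plus strand, chr12:17266339-17266588: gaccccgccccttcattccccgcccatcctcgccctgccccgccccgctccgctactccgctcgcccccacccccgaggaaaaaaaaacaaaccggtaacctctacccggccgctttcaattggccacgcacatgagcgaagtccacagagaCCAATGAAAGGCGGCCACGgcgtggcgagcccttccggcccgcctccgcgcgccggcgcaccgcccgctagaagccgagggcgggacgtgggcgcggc
Ern1, minus strand, chr11:106487797-106488046: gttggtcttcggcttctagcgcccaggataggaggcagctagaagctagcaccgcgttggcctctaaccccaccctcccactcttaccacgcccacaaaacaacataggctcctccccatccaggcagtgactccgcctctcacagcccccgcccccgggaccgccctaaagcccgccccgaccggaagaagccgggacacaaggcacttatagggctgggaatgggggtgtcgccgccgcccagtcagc

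Library totals ranged from 17.0 to 59.6 megareads (uninduced), 15.4 to 38.8 megareads (H2O2) and 13.5 to 34.4 megareads (etoposide). Of the 8 fibroblast markers, Vim (3812 to 5568 CPM) and Col1a1 (3060 to 9454 CPM) were abundant. Dcn (2.80 to 82.6 CPM) and Pdgfra (0.755 to 8.76 CPM) were far lower. The summed CPM of the 8 markers was 11961 to 22916. Of the markers of other cell types, the defining genes Epcam, Cdh1, Cdh5, Myod1 and Sox2 reached 0.0968, 0.378, 0.628, 0.231 and 0.467 CPM. Other genes of those lists were present, with Krt19 (epithelial) at 1.88 to 36.9 CPM, Des (muscle) at 8.71 to 85.1, Tubb3 and Nes (neural) at 48.6 to 102 and 178 to 1620 and Csf1r (macrophage) at 1.47 to 20.6 CPM. All 5 macrophage markers were detected in every library, with C1qa at 1.68 to 21.2, Cd68 at 0.820 to 16.6, Adgre1 at 0.456 to 9.28 and Ptprc at 0.389 to 4.81 CPM. Their sum in vehicle libraries was 18.9 to 38.8 CPM (uninduced), 8.64 to 59.8 (H2O2) and 7.53 to 53.0 (etoposide). Within a state, libraries with the same replicate number deviated from their group means together, and such a set of 5 libraries is called a preparation. Preparations differed in Xist, the RNA of the inactive X chromosome: uninduced replicate 2 and replicates 1 and 3 of both induced states had 134 to 677 CPM in every library, and the other 4 preparations at most 0.311 CPM, so Xist was high in 1 of 3 uninduced and 2 of 3 preparations of each induced state. Etoposide-induced libraries fitted the model least closely, with residual SDs of 0.211 to 0.326 log2 units against 0.154 to 0.243 in uninduced and 0.179 to 0.242 in H2O2-induced libraries.

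In uninduced vehicle cells the 32 genes spanned a wide range of expression per length of transcript. Levels between genes are compared as CPM per kilobase (kb) of exon in GENCODE M21. The highest was P4hb, a protein disulfide isomerase that is also a subunit of collagen prolyl hydroxylase, at 481 ± 50.2 CPM per kb (SD, n = 3). It was followed by Calr at 424 ± 64.8, Pdia3, the glycoprotein-specific isomerase, at 323 ± 24.6, Hsp90b1 at 296 ± 29 and Hspa5 at 224 ± 27 CPM per kb. The ranges of P4hb and Calr overlapped, as did those of Pdia3 and Hsp90b1. The lectin chaperone Canx lay at 143 ± 7.65 CPM per kb and the collagen-binding prolyl isomerase gene Ppib at 103 ± 2.83.

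The signalling genes were expressed below the abundant chaperones. Xbp1 lay at 40.2 ± 2.9 CPM per kb, Atf6 at 8.35 ± 0.326, Eif2ak3 at 5.5 ± 0.401 and Ern1 at 3.09 ± 0.102. Only the oxidase gene Ero1b, at 0.576 ± 0.0978, and Derl3, at 0.0396 ± 0.0356 CPM per kb, were lower than Ern1. Apart from Derl3, the degradation and translocation genes filled the middle, from Selenos, which recruits the extraction ATPase p97 to the membrane, at 60.8 ± 2.74, to Derl2 at 5.76 ± 0.598 CPM per kb. Each tested gene had at least 40 counts in every library, with the lowest in Ero1b.

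**Figure D1:**
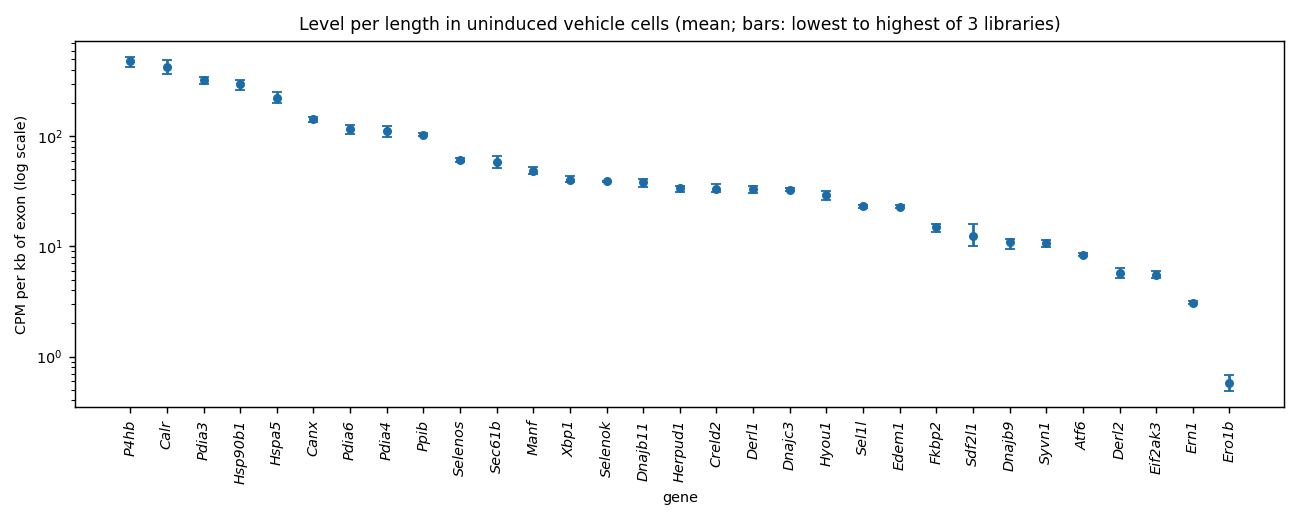
Level of each gene in uninduced vehicle cells, in CPM per kb of exon on a log scale, with points for the mean and bars from the lowest to the highest of 3 libraries. P4hb and Calr lead at 481 and 424 CPM per kb, and the sensor genes Atf6, Eif2ak3 and Ern1 lie at 8.35, 5.5 and 3.09. Derl3, with a library at 0, is not drawn.

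The spread of log2 CPM over the 45 libraries was divided into state, preparation within state, treatment within state and residual. Over the 31 tested genes the median share was 23.1% for state, 36.4% for preparation, 12.0% for treatment and 17.7% for the residual. Treatment shares were highest in Ern1 (45.5%), Atf6 (39.7%) and Xbp1 (35.5%). State dominated Pdia6 (88.6%), Fkbp2 (85.6%) and Pdia4 (72.3%), whereas preparation dominated Sdf2l1 (63.2%), a partner of the ER DnaJ co-chaperones. These shares describe the genes and were not tested.

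Key genes lie, in GENCODE M21 on GRCm38, at chr11:106394650-106487852 (Ern1, ENSMUSG00000020715), chr1:170704674-170867771 (Atf6, ENSMUSG00000026663), chr2:34771970-34777547 (Hspa5, ENSMUSG00000026864), chr12:44205559-44210326 (Dnajb9, ENSMUSG00000014905), chr8:84841850-84846934 (Calr, ENSMUSG00000003814) and chr12:17266545-17284770 (Pdia6, ENSMUSG00000020571).

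The first treatment comparison asks what ESA did to uninduced fibroblasts. The genes of the sensors IRE1 and ATF6 rose and Calr fell, while the remaining 28 tested genes did not pass. Ern1 stood at 24.6, 24.9 and 26.2 CPM in vehicle and 31.2, 39.5 and 32.8 CPM with ESA (replicates 1 to 3). Every ESA library was above every vehicle library, and replicate 2 moved most. The log2 fold change was 0.45 ± 0.10 (SE; adjusted p = 0.00198, edgeR quasi-likelihood test with Benjamini-Hochberg adjustment over all genes, as for every adjusted p here).

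Atf6 stood at 80.5, 75.6 and 75.0 CPM in vehicle and 94.1, 102 and 98.9 CPM with ESA, again without overlap, a log2 fold change of 0.35 ± 0.08 (adjusted p = 0.00288). Calr stood at 1051, 1421 and 1195 CPM in vehicle and 905, 1211 and 1080.4 CPM with ESA. It was lower in each of the 3 pairs although the groups overlapped, and its log2 fold change was -0.20 ± 0.07 (adjusted p = 0.0315). The call of Calr was lost without any 1 of the replicates and without the filter on low counts, where Dnajb9 was called in its place (0.60, adjusted p = 1.68e-06).

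The other genes usually read as UPR reporters did not pass. Dnajb9, a BiP co-chaperone and target of XBP1, was 29.2, 24.4 and 29.97 CPM in vehicle and 43.9, 43.6 and 40.7 CPM with ESA. The groups did not overlap, but its log2 fold change of 0.63 ± 0.24 missed the threshold (adjusted p = 0.0654). Hspa5 was 851, 1075 and 921 CPM in vehicle and 945, 1250.0 and 1049 CPM with ESA, higher in each pair, with a log2 fold change of 0.19 ± 0.13 (adjusted p = 0.357). Xbp1 (0.03 ± 0.06, adjusted p = 0.84) and Eif2ak3 (0.11 ± 0.07, adjusted p = 0.317) did not pass either.

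Of the 31 genes, 3 were called, 2 higher and 1 lower, beside 19.7% of all 16194 genes tested, 9.16% higher and 10.5% lower, so the share of called genes in the list (9.68%) was below that of all genes. The median log2 fold change was -0.04 in the list and -0.02 over all genes, and 28 of the 31 genes lay within 0.25 log2 units of 0. By role, the 4 sensor and transcription factor genes had a median of 0.23, the 11 chaperones -0.07, the 7 isomerases -0.13 and the 9 degradation and translocation genes 0.07. The same direction in all 3 pairs was seen in 7 genes upwards and 11 downwards, where the shares over all genes were 24.4% and 27.7%. The 9 tested genes with an ERSE had a median of -0.13, and the 18 others with a window had -0.03.

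No call was left when the preparations were not modelled or when replicate 2 was left out, while DESeq2 called 6 genes, adding Dnajb9, Pdia6 and Pdia4, and the fit to the 15 uninduced libraries alone called 9, adding Hspa5, Dnajc3 and Pdia3 to those 6. Along with these changes 4 of the 8 fibroblast markers fell (summed CPM 19111 to 22665 in vehicle and 15517 to 18873 with ESA) and 1 of the 5 macrophage markers rose (18.9 to 38.8 and 31.9 to 41.0), and of 3 tested neural markers Nes rose and Map2 fell (list sum 674 to 787 and 1030 to 1183.5, Sox2 at most 0.467). Their part in the result was not tested, and in bulk RNA fewer cells of a type cannot be told apart from less RNA per cell.

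**Figure D2:**
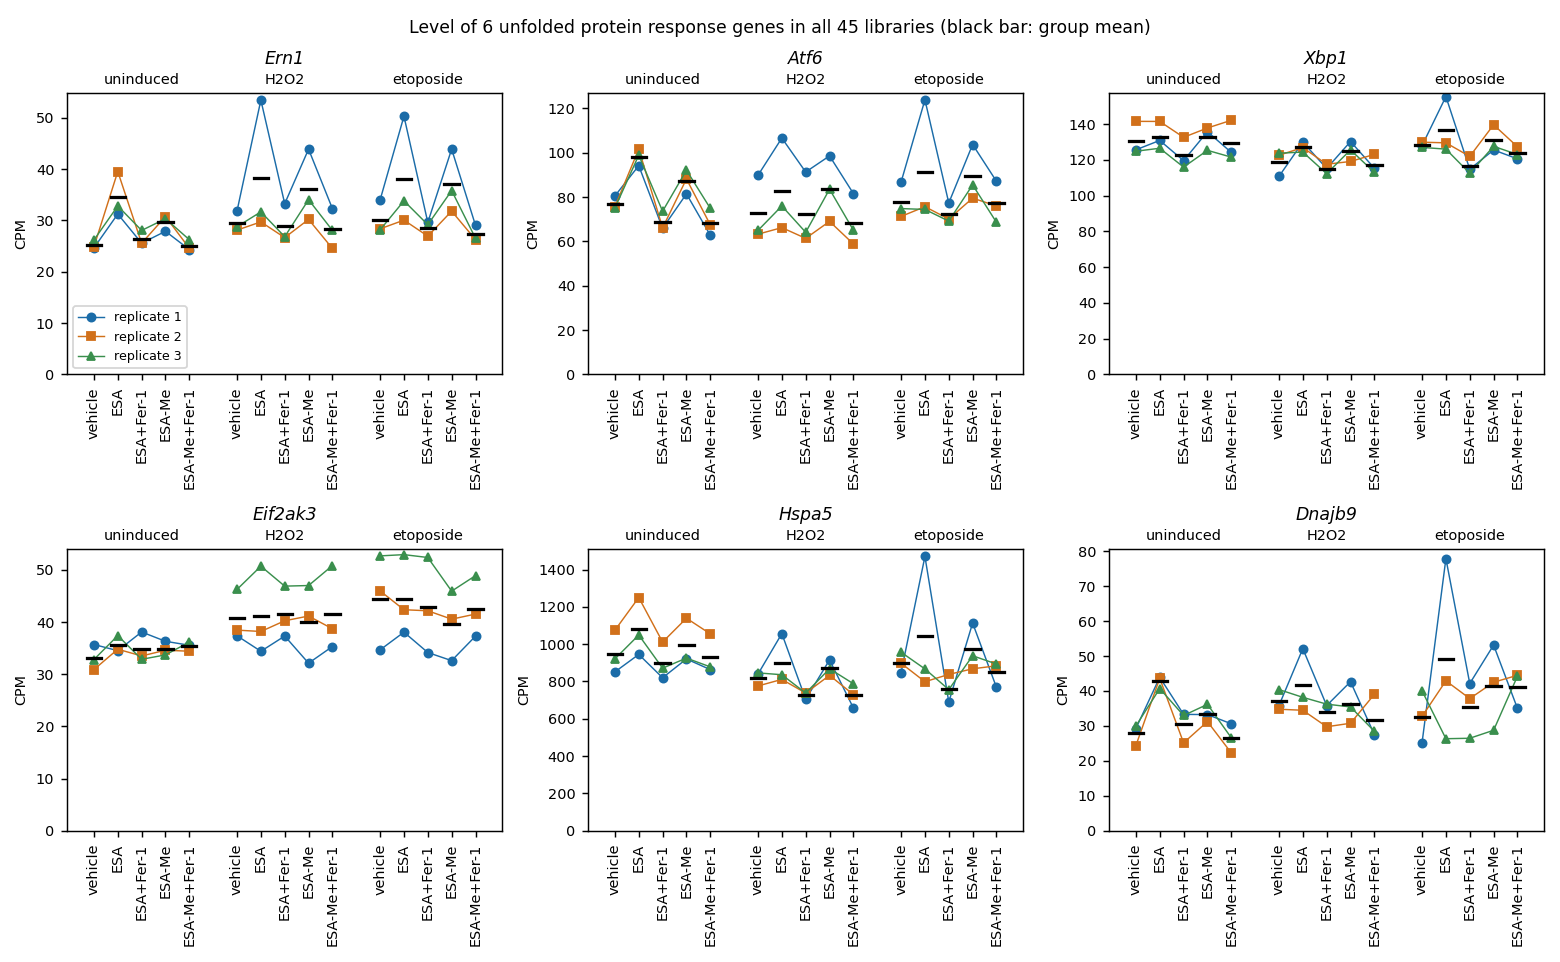
CPM of Ern1, Atf6, Xbp1, Eif2ak3, Hspa5 and Dnajb9 in all 45 libraries, by state and treatment, with a line joining the 5 libraries of a preparation and a black bar for each group mean. Ern1 and Atf6 are raised by ESA in uninduced cells and lower with Fer-1, and in etoposide-induced replicate 1 Hspa5 reaches 1470.0 CPM and Dnajb9 77.9 CPM with ESA.

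In senescent cells ESA called none of these genes. After H2O2, 0 of 31 passed (1.37% of all genes did; 4 of the 31 had an unadjusted p under 0.05, and DESeq2 also called 0), and after etoposide 0 of 31 passed (0.531% of all genes; 7 with an unadjusted p under 0.05; 0 by DESeq2). The lowest adjusted p was that of Ern1 after H2O2. It was 31.8, 28.1 and 28.8 CPM in vehicle and 53.4, 29.7 and 31.7 CPM with ESA, a log2 fold change of 0.34 ± 0.10 (adjusted p = 0.0966). After etoposide it was 34.0, 28.4 and 28.2 CPM in vehicle and 50.3, 30.1 and 33.8 CPM with ESA (0.31 ± 0.10, adjusted p = 0.205). In both states Ern1 was higher in each pair, and most of the difference came from replicate 1.

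Replicate 1 stood apart for the reporters too. With ESA in etoposide-induced cells, Hspa5 went from 848 to 1470.0 CPM in replicate 1, from 898 to 799 in replicate 2 and from 957 to 867 in replicate 3. Dnajb9 went from 25.2 to 77.9, from 32.7 to 42.9 and from 40.04 to 26.3 CPM. Herpud1, which encodes a membrane scaffold of the degradation complex, went from 74.6 to 113, from 81.6 to 78.7 and from 71.9 to 81.6 CPM. Thus only replicate 1 showed a raised Hspa5, and the direction of Dnajb9 differed between replicates.

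The fitted log2 fold changes after etoposide were 0.19 ± 0.13 for Hspa5, 0.47 ± 0.24 for Dnajb9 and 0.25 ± 0.09 for Herpud1 (adjusted p = 0.588, 0.458 and 0.238). Without replicate 1, Hspa5 was at -0.15 and Dnajb9 at -0.10. Without replicate 3, 4 genes were called, with Dnajb9 at 1.01, Atf6 at 0.32, Calr at -0.26 and Ppib at -0.20. After H2O2, Hspa5 went from 839.7 to 1057 CPM in replicate 1, from 776 to 811 in replicate 2 and from 846 to 836 in replicate 3, with 0.13 ± 0.13 fitted (adjusted p = 0.729). Dnajb9 was at 0.16 ± 0.24 (adjusted p = 0.854).

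The remaining sensors gave small values. Atf6 was 89.8, 63.2 and 64.9 CPM in vehicle and 107, 66.2 and 76.0 CPM with ESA after H2O2, a log2 fold change of 0.18 ± 0.08 (adjusted p = 0.329). After etoposide it was at 0.20 ± 0.08 (adjusted p = 0.325). Xbp1 was at 0.09 ± 0.06 in both senescent states (adjusted p = 0.557 and 0.608). Eif2ak3 was at 0.00 ± 0.07 in both (adjusted p = 1 and 0.995). After H2O2, 3 of the 31 genes were higher and 9 lower in all 3 pairs (20.5% and 21.9% of all genes), and after etoposide 2 were higher and 4 lower (8.6% and 11.6%). Calr was lower in each pair in both states, at -0.15 ± 0.07 and -0.19 ± 0.07 (adjusted p = 0.307 and 0.207).

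**Figure D3:**
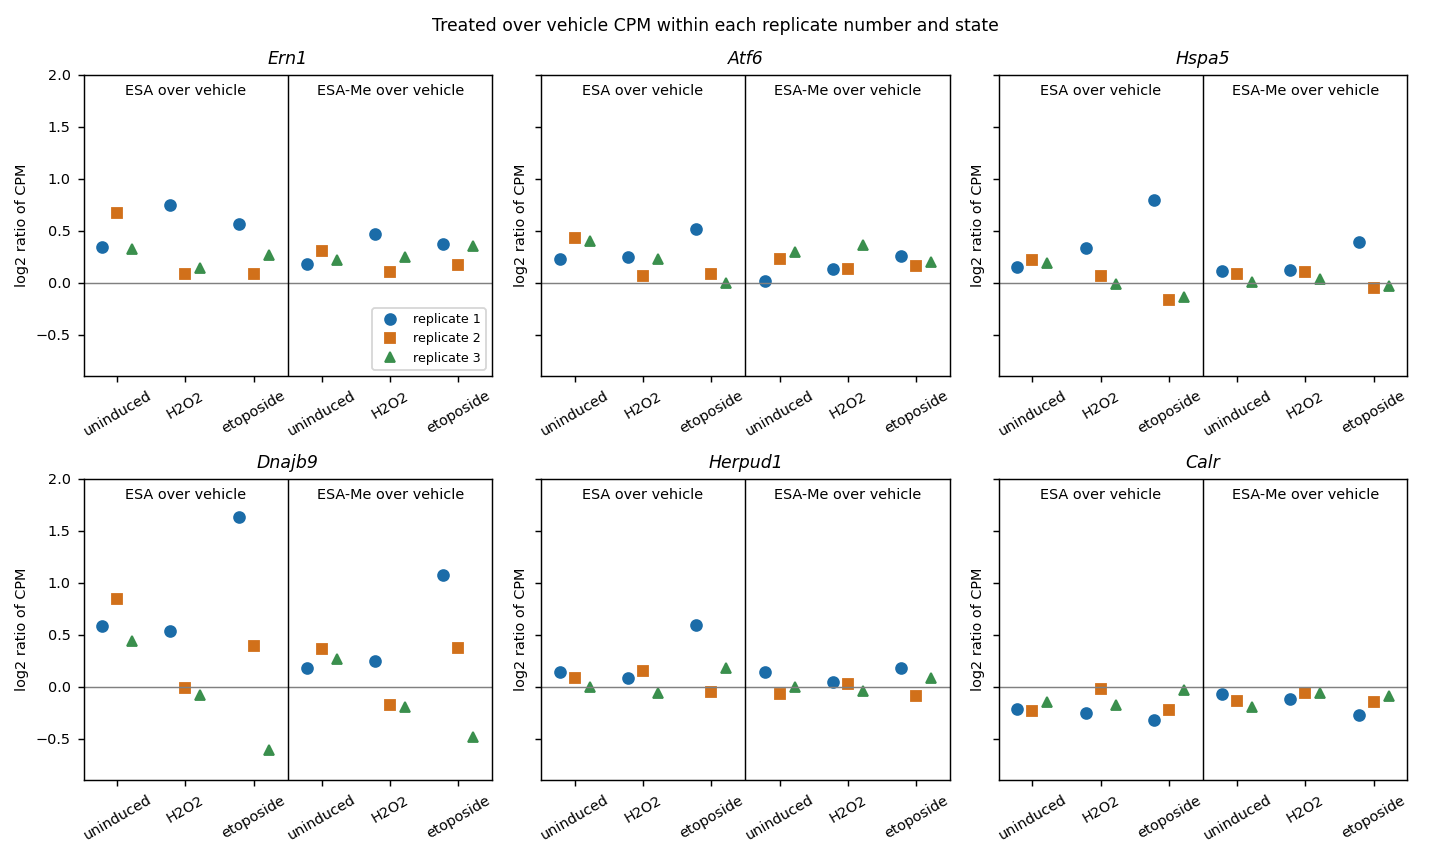
log2 ratio of CPM, treated over vehicle, within each replicate number for Ern1, Atf6, Hspa5, Dnajb9, Herpud1 and Calr, with ESA in the left part of each panel and ESA-Me in the right. Ern1 lies above 0 in all points and Calr below 0 in all points, whereas Dnajb9 after etoposide runs from 1.63 in replicate 1 to -0.60 in replicate 3 with ESA.

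ESA-Me called none of the genes in any state. The counts were 0 of 31 in uninduced cells (1.41% of all genes; 4 with an unadjusted p under 0.05), 0 of 31 after H2O2 (0.815%; 3) and 0 of 31 after etoposide (0.284%; 6), and DESeq2 called 0 in each. Ern1 with ESA-Me was 27.9, 30.8 and 30.3 CPM in uninduced cells, above the vehicle libraries, 43.9, 30.2 and 34.0 after H2O2 and 43.9, 31.8 and 35.8 after etoposide. Its log2 fold changes were 0.23 ± 0.10, 0.27 ± 0.10 and 0.29 ± 0.10 (adjusted p = 0.274, 0.234 and 0.232). Beside them stand the ESA values of 0.45, 0.34 and 0.31 over the same vehicle libraries. Atf6 was at 0.18 ± 0.08, 0.21 ± 0.08 and 0.20 ± 0.08 with ESA-Me (adjusted p = 0.31, 0.26 and 0.311), higher in each pair.

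Dnajb9 with ESA-Me was 33.2, 31.2 and 36.2 CPM in uninduced cells (0.27 ± 0.24, adjusted p = 0.674), and Hspa5 was at 0.07 ± 0.13 (adjusted p = 0.885). In etoposide-induced cells replicate 1 again had the highest levels, with Hspa5 at 1113, 868 and 938 CPM and Dnajb9 at 53.1, 42.5 and 28.7 CPM in replicates 1 to 3. Without replicate 3, ESA-Me called 7 genes there, with Dnajb9 at 0.69, Canx at 0.29 and the BiP co-chaperone gene Dnajc3 at 0.26 higher, and Sdf2l1 at -0.37, Calr at -0.21, Ppib at -0.21 and P4hb at -0.18 lower. In the uninduced libraries fitted alone, Dnajb9 (0.28) and Ern1 (0.24) were called.

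Whether a compound's effect differed between states was tested directly, and no gene of the list passed in any of the 6 tests. The ESA response called 0 of 31 for H2O2 minus uninduced, 0 for etoposide minus uninduced and 0 for etoposide minus H2O2 (0.259%, 0.722% and 0.0% of all genes). The ESA-Me response called 0 in all 3 (0.0% of all genes in each). Over the 6 tests 1 gene had an unadjusted p under 0.05, Eif2ak3 for ESA-Me in etoposide minus uninduced, and DESeq2 called none in any. For Ern1 the ESA response differed by -0.11 ± 0.15 (H2O2 minus uninduced) and -0.14 ± 0.15 (etoposide minus uninduced), with adjusted p = 0.969 and 0.754. For Dnajb9 the differences were -0.47 ± 0.34 and -0.16 ± 0.34 (adjusted p = 0.871 and 0.906). The calls in uninduced cells alone thus do not show that senescent cells responded less.

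Fer-1 before ESA was the comparison with the most calls among the sensor genes. Ern1 fell in all 3 states, Atf6 fell in uninduced and etoposide-induced cells, and Xbp1 fell in etoposide-induced cells, and no gene of the list was called higher. In uninduced cells Ern1 was 25.6, 25.6 and 28.0 CPM with Fer-1 and ESA against 31.2, 39.5 and 32.8 with ESA alone. The groups did not overlap, and the log2 fold change was -0.39 ± 0.10 (adjusted p = 0.00779). Atf6 was 65.9, 66.1 and 73.6 CPM against 94.1, 102 and 98.9 (-0.52 ± 0.08, adjusted p = 5.07e-05), which also left it below each of the vehicle libraries at 75.0 to 80.5 CPM.

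In H2O2-induced cells Ern1 was 33.3, 26.6 and 26.8 CPM with Fer-1 and ESA against 53.4, 29.7 and 31.7 with ESA alone, lower in each pair (-0.38 ± 0.10, adjusted p = 0.0328). In etoposide-induced cells it was 29.6, 26.9 and 29.2 CPM against 50.3, 30.1 and 33.8, without overlap (-0.38 ± 0.10, adjusted p = 0.0478). There Atf6 was 77.3, 70.1 and 69.1 CPM against 124, 75.6 and 74.4 (-0.30 ± 0.08, adjusted p = 0.0478). The fall of Atf6 was largest in replicate 1, as its level with ESA had been.

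Xbp1 in etoposide-induced cells was 115, 122 and 113 CPM against 155, 129.6 and 126, below every ESA library (-0.23 ± 0.06, adjusted p = 0.0493). Without the filter on low counts the calls in etoposide-induced cells were Ern1, Hspa5 and Dnajb9, and not Atf6 or Xbp1, and Xbp1 was also lost without replicate 3, where Herpud1 was called. Hspa5 there was 689, 838 and 756 CPM against 1470.0, 799 and 867, lower in replicates 1 and 3 (-0.43 ± 0.13, adjusted p = 0.0712), and DESeq2 called it. In H2O2-induced cells Hspa5 was 704, 738 and 738 CPM against 1057, 811 and 836, below all ESA libraries (-0.31 ± 0.13, adjusted p = 0.193). Dnajb9 in uninduced cells was 33.3, 25.1 and 33.0 CPM against 43.9, 43.6 and 40.7 (-0.50 ± 0.24, adjusted p = 0.152).

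The counts for Fer-1 with ESA against ESA were 2 of 31 in uninduced cells, both lower (19.8% of all genes were called, 9.55% lower and 10.3% higher), 1 of 31 after H2O2 (4.03% called, 2.99% lower and 1.04% higher) and 3 of 31 after etoposide (2.32% called, 1.86% lower and 0.463% higher). The medians of the list were 0.00, -0.01 and -0.08 and those of all genes 0.02, 0.01 and 0.00. To these counts the chaperones and isomerases contributed no call, but other fits called some of them. These comparisons share the ESA libraries with those of ESA against vehicle, so a high ESA value enters both with opposite sign. No call was left in any state without the preparation block, and none in the H2O2-induced or the etoposide-induced libraries fitted alone, whereas the uninduced libraries alone gave 9. Among those were Hspa5, Dnajb9 and Hyou1, called lower, and Calr, Dnajc3 and Pdia4, called higher. Without the filter on low counts Hspa5 was called lower in each state, and Dnajb9 in uninduced and etoposide-induced cells. Leaving out a replicate lowered the count to 1 in uninduced cells (without replicate 2), to 0 after H2O2 (without replicate 1 or 3) and to 0 after etoposide (without replicate 1), or raised it to 5 after etoposide (without replicate 2). In uninduced cells 3 of 8 fibroblast markers rose with Fer-1 (summed CPM 15517 to 18873 with ESA and 18476 to 22916 with Fer-1 and ESA), 2 of 5 macrophage markers fell (31.9 to 41.0 and 17.5 to 35.8), Map2 rose and Nes fell (neural sum 1030 to 1183.5 and 635 to 691). Nes also fell after H2O2 (-0.62) and etoposide (-0.54), and Krt19 after H2O2 (-0.70). Their part in the result was not tested.

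Fer-1 before ESA-Me gave calls in the same sensor genes. Atf6 in uninduced cells was 62.7, 67.5 and 74.9 CPM against 81.4, 88.2 and 92.1 with ESA-Me alone, without overlap (-0.35 ± 0.08, adjusted p = 0.0138). Ern1 in etoposide-induced cells was 29.0, 26.3 and 26.5 CPM against 43.9, 31.8 and 35.8, also without overlap (-0.44 ± 0.10, adjusted p = 0.0121). The other states did not pass, with Ern1 at -0.24 ± 0.10 in uninduced and -0.34 ± 0.10 in H2O2-induced cells (adjusted p = 0.19 and 0.0816), and Atf6 at -0.29 ± 0.08 after H2O2 and -0.21 ± 0.08 after etoposide (adjusted p = 0.0638 and 0.151). Ern1 and Atf6 were lower in each pair in every state.

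The counts were 1 of 31 in uninduced cells (3.51% of all genes, 1.87% lower and 1.64% higher), 0 of 31 after H2O2 (2.09% of all genes in either direction; 2 with an unadjusted p under 0.05; 1 by DESeq2, Atf6) and 1 of 31 after etoposide (4.31%, 2.58% lower and 1.74% higher). The call in uninduced cells was lost without each of the 3 replicates in turn and that after etoposide without replicate 1 or 3. Neither was left without the preparation block, and the etoposide-induced libraries alone gave 0. Nes and Krt19 fell with Fer-1 here too, after H2O2 (-0.65 and -0.79) and after etoposide (-0.62 and -0.77), and their part in the result was not tested.

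**Figure D4:**
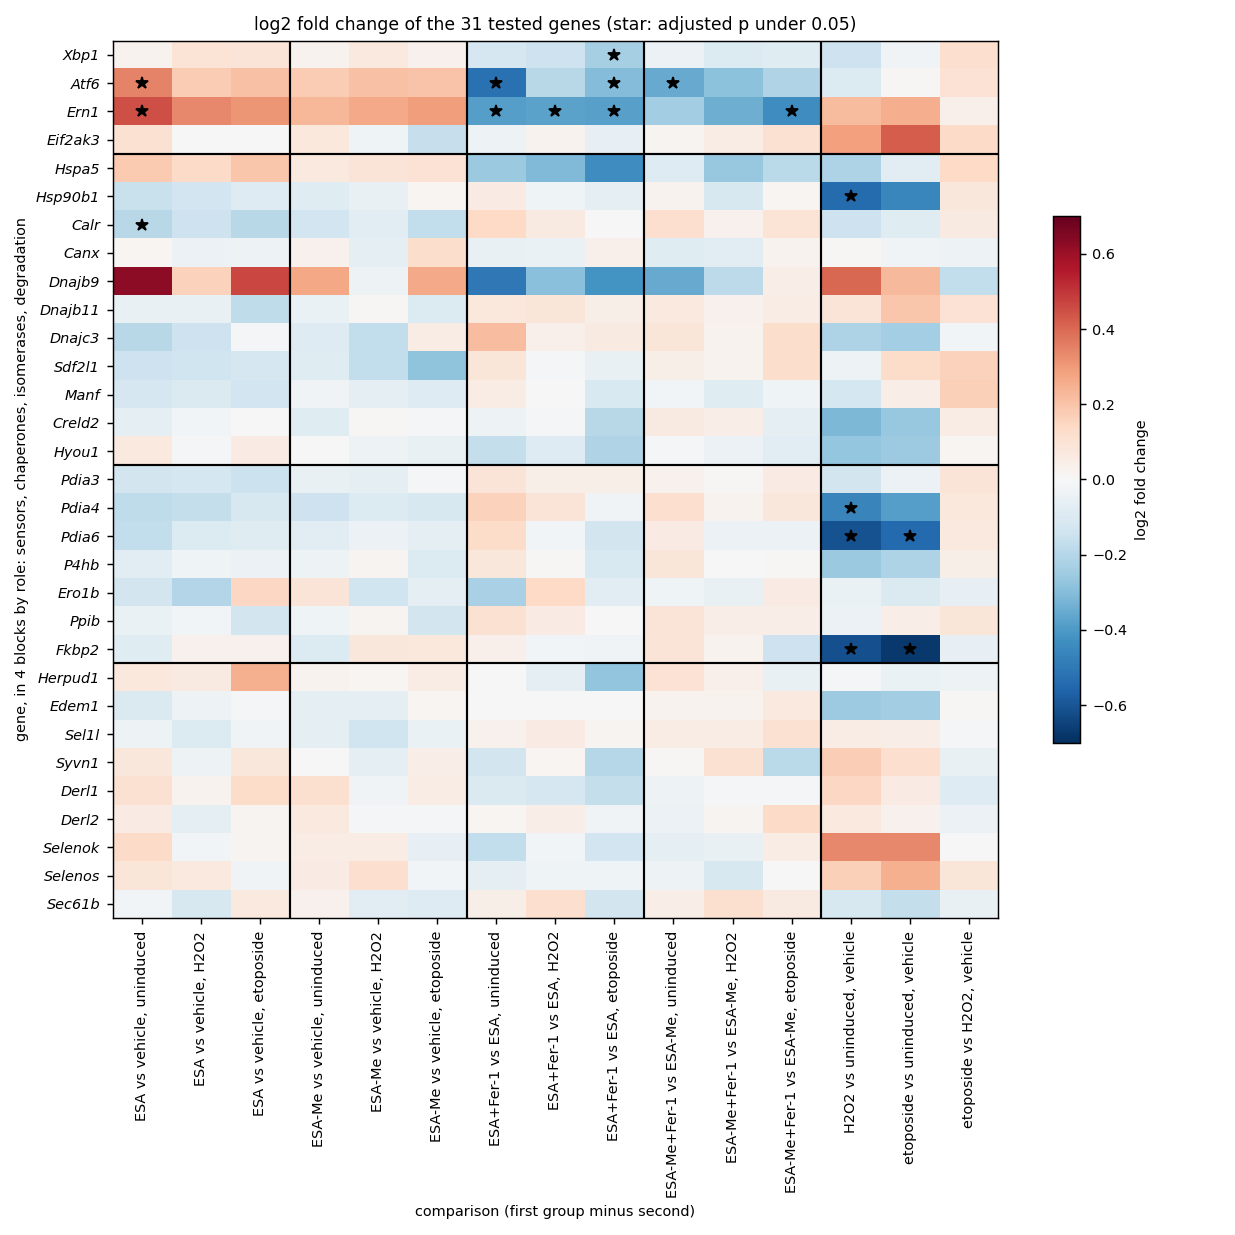
log2 fold change of the 31 tested genes (rows, in 4 blocks by role) in 15 comparisons (columns), red for higher and blue for lower in the first group, with a star at adjusted p under 0.05. The stars of the treatment comparisons fall on Ern1, Atf6, Xbp1 and Calr, and those of the senescence comparisons on Hsp90b1, Pdia4, Pdia6 and Fkbp2.

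Senescence itself was compared in the 9 vehicle libraries. After H2O2, GRP94, both isomerase genes Pdia4 and Pdia6, and Fkbp2, a prolyl isomerase of the ER lumen, fell, and after etoposide Pdia6 and Fkbp2 fell. Pdia6 was 389, 475 and 441 CPM in uninduced, 301, 278 and 280.1 CPM in H2O2-induced and 316, 317 and 261 CPM in etoposide-induced cells. All senescent libraries lay below all uninduced ones, and the log2 fold changes were -0.61 ± 0.12 (adjusted p = 0.0145) and -0.54 ± 0.12 (adjusted p = 0.0229).

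Fkbp2 was 22.4, 26.2 and 25.7 CPM in uninduced cells, 16.9, 16.5 and 15.4 CPM after H2O2 and 17.3, 16.4 and 12.9 CPM after etoposide, again without overlap. Its log2 fold changes were -0.61 ± 0.14 (adjusted p = 0.0221) and -0.67 ± 0.14 (adjusted p = 0.0161). Pdia4 was 236, 299 and 271 CPM in uninduced, 198, 195 and 196 CPM in H2O2-induced and 196, 225 and 195 CPM in etoposide-induced cells (-0.46 ± 0.11, adjusted p = 0.0323, and -0.39 ± 0.11, adjusted p = 0.0577). Hsp90b1 was 1064, 1294 and 1218 CPM, then 889, 794 and 796 CPM, then 704, 966 and 937 CPM (-0.54 ± 0.15, adjusted p = 0.0475, and -0.46 ± 0.15, adjusted p = 0.0774). For both, every senescent library lay below every uninduced one, but only the H2O2 comparison passed. For all 4 genes the same order among preparations with high Xist, or among those without it, follows from this and is no separate check. The part of Xist was not tested.

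The other genes did not pass. Hspa5 was at -0.22 ± 0.12 after H2O2 and -0.08 ± 0.12 after etoposide (adjusted p = 0.27 and 0.717), and Dnajb9 at 0.40 ± 0.17 and 0.23 ± 0.17 (adjusted p = 0.152 and 0.404). Of the sensors, Ern1 was at 0.22 ± 0.11 and 0.26 ± 0.11 (adjusted p = 0.218 and 0.153), Eif2ak3 at 0.29 ± 0.16 and 0.42 ± 0.16 (adjusted p = 0.271 and 0.112), Atf6 at -0.09 ± 0.14 and 0.01 ± 0.14 (adjusted p = 0.716 and 0.975) and Xbp1 at -0.14 ± 0.09 and -0.03 ± 0.09 (adjusted p = 0.339 and 0.872). Edem1, a lectin that directs misfolded glycoproteins to degradation, was 145, 154 and 146 CPM in uninduced and 120.4 to 131 CPM in senescent vehicle cells, and Selenok, an ER selenoprotein, was 72.3 to 74.7 and 80.4 to 105 CPM. Neither pair of groups overlapped, and DESeq2 called both genes after each inducer.

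The counts were 4 of 31 lower after H2O2 (13.0% of all 15357 genes tested were called, 6.89% lower and 6.07% higher) and 2 of 31 lower after etoposide (12.9%, 6.8% lower and 6.12% higher). Both comparisons share the uninduced libraries, and same-numbered induced libraries deviated together, so the 2 counts are not independent. Xist ran alike by number in both induced states but not in uninduced cells. State therefore cannot be told apart from the cells used. Groups did not overlap for 5 genes upwards and 9 downwards after H2O2 (21.3% and 20.7% over all genes) and for 4 and 7 after etoposide (17.6% and 17.0%). The median of the 7 isomerases was -0.26 and -0.21, that of the 9 degradation and translocation genes 0.07 and 0.05, and that of all genes 0.01 and 0.03. Etoposide against H2O2 called 0 of 31 and 0.0% of all genes, with 0 of the 31 and 78 of all genes at an unadjusted p under 0.05 and 0 by DESeq2. Here same-numbered libraries deviated together (correlations 0.62 to 0.76), which this fit ignores, and with the replicate number as a block in these 6 libraries alone, a fit added after seeing the data, 0 of the 31 and 0 of all genes were called (0 and 142 at an unadjusted p under 0.05). The groups did not overlap for 2 genes upwards and 0 downwards (1.5% and 1.32% of all genes).

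Both senescence counts fell to 0 without replicate 2 or replicate 3 of uninduced vehicle, and that after H2O2 also without H2O2 replicate 2 and to 1 and 2 without H2O2 replicate 3 and 1. DESeq2 and the model of 15 groups gave the same 6 genes for each inducer (Edem1, Fkbp2, Hsp90b1, Pdia4, Pdia6 and Selenok). The model of 15 groups treats libraries of a preparation as independent. Of the 2 tested epithelial markers both fell with the inducers, from a list sum of 20.5 to 38.2 CPM over uninduced libraries to 2.29 to 7.97 and 2.42 to 8.55 CPM (Krt8, Epcam and Cdh1 near 0), and the muscle gene Des fell in a list whose sum went from 39.6 to 85.3 to 14.4 to 36.1 and 8.71 to 34.7 CPM, with Myod1 and Myog near 0. Emcn, of 2 tested endothelial markers, fell as well (list sum at most 2.42 CPM). Of the fibroblast markers, Pdgfrb rose after H2O2 (0.36) and Col1a1 fell after etoposide (-0.77). Their part in the result was not tested.

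**Figure D5:**
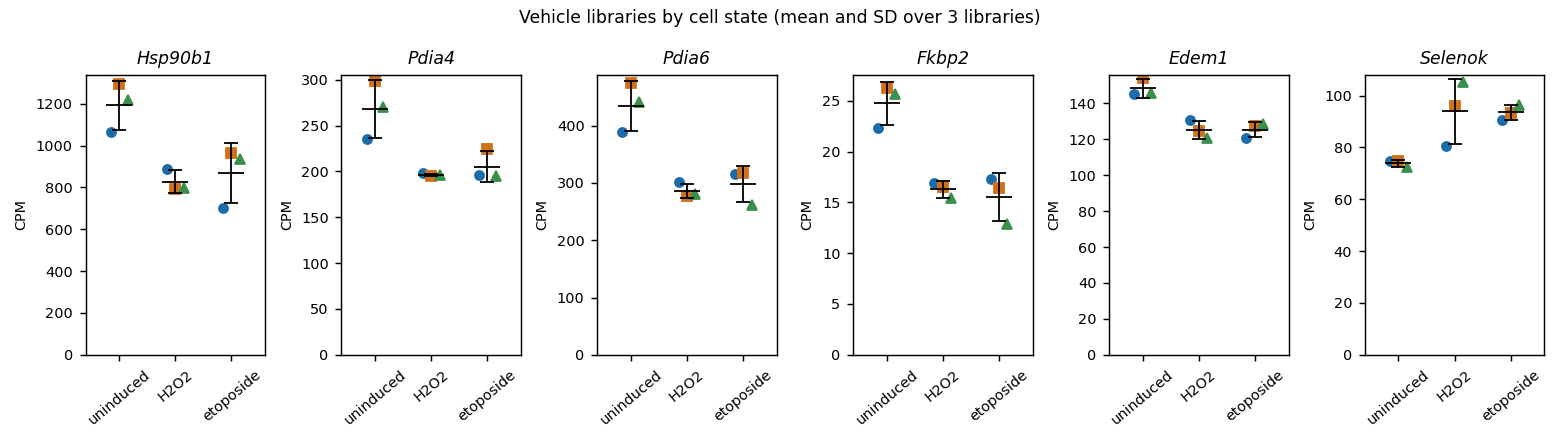
CPM of Hsp90b1, Pdia4, Pdia6, Fkbp2, Edem1 and Selenok in the 9 vehicle libraries by state, each point a library and each bar the mean with its SD over 3 libraries. Senescent libraries lie below all uninduced ones in the first 5 genes and above them in Selenok, and Pdia6 averages 435 CPM in uninduced against 286 and 298 CPM in senescent cells.

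Other genes of the pathway were read from further lists. These lists were chosen with earlier results of these data known. Their counts are set beside the shares of all genes as description and are not independent evidence. In uninduced cells with ESA, 12 of 15 genes of the PERK and ATF4 arm rose, beside 9.16% of all genes, and none fell (median log2 fold change 0.50, against -0.02 over all genes). The list is named for that arm, but gene counts do not measure PERK activity. What raised these genes was not tested. Slc7a11, the cystine transporter, rose by 1.92 ± 0.31, Atf3 by 1.88 ± 0.33, Ppp1r15a, which restores translation, by 0.84 ± 0.17 and the CHOP gene Ddit3 by 0.65 ± 0.11 log2 units. After H2O2, 6 of 15 rose, where 1.37% of all genes were called in either direction. Among them were Atf3 at 2.51 ± 0.33, Slc7a11 at 1.72 ± 0.35, the pseudokinase gene Trib3 at 0.74 ± 0.18 and Ddit3 at 0.44 ± 0.10. After etoposide only Atf3 (2.24 ± 0.32) and Slc7a11 (1.83 ± 0.36) passed (0.531% of all genes called). ESA-Me raised 2 of 15 in each state, where 1.41% (uninduced), 0.815% (H2O2) and 0.284% (etoposide) of all genes were called in either direction. Atf3 rose in every state, with Slc7a11 in uninduced and etoposide-induced cells and Nupr1 (0.37 ± 0.08) after H2O2.

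With Fer-1 before ESA, 9, 10 and 7 of the 15 fell in uninduced, H2O2-induced and etoposide-induced cells, and before ESA-Me 1, 4 and 5 fell, with none higher. The shares of all genes called lower were 9.55%, 2.99% and 1.86% with ESA and 1.87% and 2.58% with ESA-Me in uninduced and etoposide-induced cells, and 2.09% were called in either direction with ESA-Me after H2O2. Atf3 with ESA was 8.68, 17.7 and 10.8 CPM in uninduced cells against 2.76, 3.64 and 3.61 in vehicle and 2.71, 3.86 and 4.24 with Fer-1 and ESA. Among these groups only the ESA libraries were high, and ESA-Me raised Atf3 in uninduced cells as well (log2 fold change 1.29 ± 0.33).

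Of 19 further ERAD genes, 6 rose with ESA in uninduced cells (9.16% of all genes) and 7 fell with Fer-1 before ESA (9.55%), and none passed with ESA in H2O2-induced or etoposide-induced cells (1.37% and 0.531% of all genes called) or with Fer-1 before ESA there (4.03% and 2.32%). The leading ones encode p97 and its partners: Nploc4 rose by 0.56 ± 0.09, Ubxn4 by 0.54 ± 0.07, Vcp by 0.49 ± 0.09 and Ufd1 by 0.43 ± 0.06 log2 units. Vcp was 564, 582 and 618 CPM in vehicle and 764, 903 and 823 CPM with ESA. The ESA response of Vcp differed by -0.54 on the log2 scale in etoposide minus uninduced, that of Ubxn4 by -0.53 and that of Ufd1 by -0.42, each called in that test.

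Of 15 heat shock genes of the cytosol and mitochondria, 10 rose with ESA in uninduced cells (9.16% of all genes) and 9 fell with Fer-1 before ESA (9.55%). In the first comparison Hspa1a was at 2.41 ± 0.50, Hspa1b at 1.13 ± 0.35, Hspb8 at 0.76 ± 0.09 and the mitochondrial chaperonin gene Hspd1 at 0.51 ± 0.09. The near-identical Hspa1a and Hspa1b share reads, so their values are uncertain. After H2O2 only Hspa9, also mitochondrial (0.31 ± 0.07), and after etoposide only Hspa1a (2.32 ± 0.53) passed (1.37% and 0.531% of all genes called). With ESA-Me, Hspb8 (0.46 ± 0.09) and Hspa9 (0.27 ± 0.07) rose in uninduced cells and Hspa9 (0.31 ± 0.07) after H2O2 (1.41% and 0.815% of all genes called).

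The remaining ER lists had few calls with ESA in uninduced cells, where 19.7% of all genes were called, 9.16% higher and 10.5% lower. Of 20 other folding and redox genes, the oxidase gene Ero1a rose (0.60 ± 0.18) and Dnajc10 fell (-0.28 ± 0.10). Of 16 translocon and signal peptidase genes Sec11c rose (0.30 ± 0.09), of 16 genes of COPII export Sec23a fell (-0.22 ± 0.08), and of 13 tested other UPR regulators Rtcb, the ligase that joins Xbp1 exons, rose (0.20 ± 0.07). None of these 4 lists had a call with ESA in senescent cells or with ESA-Me in any state. Few genes of any kind were called there. With ESA the shares of all genes were 1.37% (H2O2) and 0.531% (etoposide). With ESA-Me they were 1.41% (uninduced), 0.815% (H2O2) and 0.284% (etoposide).

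In senescence the ER peroxiredoxin gene Prdx4 fell (log2 fold change -1.05 ± 0.11 with H2O2 and -0.87 ± 0.11 with etoposide), from 113 to 121 CPM in uninduced vehicle cells to 52.0 to 69.7 CPM in senescent ones. Sil1, a nucleotide exchange factor of BiP, rose (0.46 ± 0.09 and 0.56 ± 0.09), as did the signal peptidase genes Spcs1 (0.48 and 0.45) and Sec11c (0.47 and 0.48) and, of the PERK arm, Ppp1r15a (0.85 and 1.07). After etoposide the redox gene Tmx1 (-0.65 ± 0.18) and Slc7a11 (-1.69 ± 0.40) fell, and Ubxn4, Faf2 and Creb3l2 rose (0.39, 0.34 and 0.32). After H2O2 Sesn2 (0.46) and Sar1b (0.34) rose and Eif2ak4 (-0.42) fell. Of the heat shock genes Hspa4l fell after both inducers (-1.02 and -0.94) and Hsp90aa1 after etoposide (-0.54). The genes named here are all the calls of these lists, whose sizes are given above. Of all genes, 13% were called after H2O2 (6.89% lower, 6.07% higher) and 12.9% after etoposide (6.8% lower, 6.12% higher). These scattered calls therefore do not set the lists apart from genes at large.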

How the data were processed

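The authors deposited a table of raw read counts per gene for 45 libraries; the labels' protocols name Trizol extraction and a stranded total RNA kit. Per the submitters' processing notes the tools were FastQC, HISAT2 2.1.0, featureCounts and edgeR on GRCm38, with no settings given. Of 57010 genes, 21212 had no count in any library. Replicates of a group were no copies of each other (chi-square per gene 11.0 to 125 over 45 pairs).

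Treatment comparisons were fitted with edgeR 4.0.16 (R 4.3.3): filterByExpr (16194 genes), TMM, and a robust quasi-likelihood model of all 45 libraries with treatment within state and a block for each of 9 preparations (24 residual degrees of freedom). The replicate numbers were taken as pairs within a state because, over 30 pairs of groups, same-numbered libraries had correlations of deviations from the group means of 0.26 to 0.82, against at most 0.0973 for other numbers; the labels state no pairing. States were compared over the 9 vehicle libraries without a block (15357 genes, 6 residual degrees of freedom), since uninduced and induced vehicle libraries of 1 number had correlations of only -0.22 to 0.0525; H2O2-induced and etoposide-induced ones had 0.62 to 0.76, so a block was added for that pair as an alternative. Adjusted p is Benjamini-Hochberg over all genes in a comparison, and a gene was called under 0.05. CPM used TMM-scaled library sizes. The code was tested on simulated data. Of genes changed by 1 log2 unit, it called 100% for ESA in uninduced cells. For H2O2 against uninduced it called 54%, and 84% of those changed by 1.5 log2 units. A gene that did not pass in the senescence comparisons may thus still have changed. Alternatives were RLE scaling, no filter, DESeq2 1.42.0, other blocks and samples, and leaving out replicates.

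Named were called members, at most 8 per comparison, Hspa5, Dnajb9, Xbp1, Atf6, Ern1 and Eif2ak3 in the ESA and senescence comparisons, and up to 4 called genes of each other list; Edem1, Selenok, Herpud1 and Canx were picked after seeing their values. The members and lists were chosen with earlier results of these data known.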

Additional observations from a re-analysis of the deposited data

Results flagged for a closer look

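The response of Eif2ak3, the PERK gene, to ESA-Me ran in opposite directions in uninduced and etoposide-induced cells: it was higher than vehicle in each uninduced pair and lower in each etoposide-induced pair. The log2 fold changes were 0.08 and -0.16, and their difference was -0.23 ± 0.10 (SE), which did not pass (adjusted p = 0.961, edgeR quasi-likelihood test). In uninduced cells it was 35.7, 30.9 and 32.8 CPM in vehicle and 36.3, 34.6 and 33.7 CPM with ESA-Me, and in etoposide-induced cells 34.7, 46.0 and 52.7 CPM and 32.6, 40.6 and 45.9 CPM. Groups of 3 replicates are too small for a check of single outlying samples.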

How the results depend on the processing

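The number of called genes of the 31 stayed within 1.5 times its value in 150 of 196 recomputed counts. Many of these counts belong to comparisons that called 0 genes and stayed at 0. The share therefore says little about the comparisons with calls, many of whose counts moved. Without the replicate block it was 0 for ESA in uninduced cells, for Fer-1 with ESA in all 3 states, and for Fer-1 with ESA-Me in uninduced and etoposide-induced cells; the block changed no other treatment count, and with a replicate block the senescence comparisons called 3 (H2O2) and 2 (etoposide). With no filter on low counts it was 1 for ESA in etoposide-induced cells, 4 and 2 for Fer-1 with ESA in uninduced and H2O2-induced cells, 1 for Fer-1 with ESA-Me after H2O2, and 2 for H2O2 against uninduced. DESeq2 gave 6 for ESA in uninduced cells, 1 for Fer-1 with ESA-Me after H2O2 and 6 for each inducer against uninduced, for which the model of 15 groups also gave 6. The libraries of 1 state alone gave 9, 2, 9 and 3 in uninduced cells (ESA, ESA-Me, Fer-1 with ESA, Fer-1 with ESA-Me), 0 and 1 after H2O2 (Fer-1 with ESA, with ESA-Me) and 0 and 0 after etoposide. The cause was not tested.

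Leaving out a replicate gave 0 to 2 for ESA in uninduced and 0 to 4 in etoposide-induced cells, 0 to 7 for ESA-Me after etoposide, 1 to 2, 0 to 1 and 0 to 5 for Fer-1 with ESA in the 3 states, 0 to 0 and 0 to 1 for Fer-1 with ESA-Me in uninduced and etoposide-induced cells, 0 to 1 for the ESA response in etoposide minus uninduced (Dnajc3), 0 to 2 for the ESA-Me response in etoposide minus H2O2 (Canx and Dnajc3), and 0 to 3 for each inducer. Of 414 recomputed values of single genes, 16 changed sign, all of genes not called. With a replicate left out, ESA after H2O2 gave Dnajb9 -0.042 (without replicate 1) to 0.27 and Eif2ak3 -0.071 (without replicate 3) to 0.067. ESA after etoposide without replicate 1 gave the lowest value of Hspa5 (-0.15 to 0.36), Dnajb9 (-0.10 to 1.01), Xbp1 (-0.0061 to 0.15) and Eif2ak3 (-0.055 to 0.071). Eif2ak3 with ESA after H2O2 was at -0.0016 (RLE), -0.0099 (no filter) and -0.0021 (DESeq2), and after etoposide at -0.00062 (no filter) and -0.00045 (no replicate block). Etoposide against uninduced gave Hspa5 -0.15 to 0.016 and Xbp1 -0.056 to 0.028, both highest without uninduced replicate 2, and Atf6 -0.082 (without etoposide replicate 1) to 0.057.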
